A study of Homo sapiens with 6 samples.

Results

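The genes of the insulin-like growth factor (IGF) axis described here are 10 of the 16306 genes in the table: the carrier genes IGFBP5, IGFBP2, IGFBP3, IGFBP4, IGFBP6 and IGFBP7, the receptor genes IGF1R and IGF2R, and the adaptor genes IRS1 and IRS2. They were chosen by symbol, with the higher IGFBP5 count after RBM10 knockdown already known, so their values in that contrast are given as a description and without a test. PC9, a human lung adenocarcinoma line whose growth depends on EGFR with an activating deletion, carried either a control shRNA (sh-NC, 3 samples) or an shRNA against RBM10 (shRBM10, 3 samples). RBM10 is an RNA-binding protein that regulates splicing. The comparison asks which transcripts differ when RBM10 is reduced. No drug treatment, time or clone is given in the labels of either group, and which RBM10 shRNA the sequenced cells carried is not stated. The shRBM10 titles hold a number that the labels pair with the replicate, so it may mark a replicate or an shRNA. In the 3 shRBM10 count columns the number is the same and the last letter differs, so there it need not mark the replicate. The protocol text that comes with the samples speaks of retinas, although the labels and the study give PC9.

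The IGF axis couples growth-factor supply to cell growth. IGF ligands activate the tyrosine kinase encoded by IGF1R, which passes the signal through the docking proteins IRS1 and IRS2 to PI3K and AKT, whereas the IGF2R product, the mannose 6-phosphate receptor, carries lysosomal enzymes and removes IGF2 without kinase signaling. Secreted IGF-binding proteins hold the ligands outside the cell, where they can keep IGF from its receptor or deliver it, and proteases release the ligand by cutting them. In EGFR-driven lung cancer, IGF1R signaling is known as a bypass route under EGFR inhibition.

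The libraries held between 16606390 and 18864243 counts on genes. RBM10 had 1578, 864 and 1628 estimated counts in sh-NC replicates 1, 2 and 3 and 523, 537 and 700 in shRBM10 libraries A, B and C, a log2 fold change of -1.24 (SE 0.23), and -1.42 (SE 0.19) without sh-NC replicate 2. The knockdown libraries therefore lay below every control library for the targeted gene. Of the 10 epithelial and lung adenocarcinoma markers, 8 passed the filter on low counts, with a summed level of 24790 to 55623 CPM (counts per 1000000, after TMM scaling). The keratin genes KRT8, KRT18, KRT19 and KRT7 made up most of this level. NAPSA, a lung adenocarcinoma marker that passed the filter, had only 9 to 17 counts in each library. The lung lineage markers NKX2-1 and SFTPB were at 0 to 3.15 counts in each library. Fibroblast markers, of interest because fibroblasts secrete IGFBP5, summed to 3.21 to 6.76 CPM in sh-NC and 5.87 to 11.1 CPM in shRBM10, with DCN, LUM and PDGFRA not listed. Most of that sum was COL1A1, at 5.58, 2.09 and 5.21 CPM in sh-NC and 5.42, 6.99 and 9.67 CPM in shRBM10. PDGFRB had 1.19, 0.97 and 0.93 CPM in sh-NC and 0.45, 0.57 and 1.36 CPM in shRBM10, and COL1A2 had 0 to 2 counts. Endothelial markers summed to 5.44 to 10.2 CPM in sh-NC and 2.68 to 3.75 CPM in shRBM10. That sum was mostly 1 gene, CDH5, at 8.74, 4.55 and 8.64 CPM in sh-NC and 2.235, 3.23 and 2.98 CPM in shRBM10. VWF had 1.33, 0.82 and 0.88 CPM in sh-NC and 0.28, 0.47 and 0.47 CPM in shRBM10, and PECAM1 had 1 to 3 counts. The part of these markers in the results was not tested. In bulk RNA, fewer cells of a type and less RNA per cell cannot be told apart.

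sh-NC replicate 2 stood apart from the other controls. Across 12570 genes its level relative to sh-NC replicates 1 and 3 went down with transcript length (Spearman rho of -0.66 across genes, which share the library and are not independent replicates). shRBM10 libraries A and B went down with GC content (rho of -0.75 and -0.67), and library C did not (rho of 0.03). With transcript length the rho was 0.28 in library A, 0.11 in library B and -0.14 in library C. The labels do not say that samples of a group came from separate cultures, so SEs and p-values measure only the spread between these samples. Fold changes of single genes below are therefore also given without sh-NC replicate 2.

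IGFBP5 and IGFBP2 lie tail to tail on chromosome 2 of GRCh38. IGFBP2 runs from 216632828 to 216664436 on the plus strand and IGFBP5 from 216672105 to 216695525 on the minus strand, with 7668 bases between their 3' ends. The pair is of interest because IGFBP5 was higher and IGFBP2 lower in shRBM10. The 250 bases before the RefSeq start of each (GRCh38.p14), and those of IGFBP4, the carrier with the next lowest fold change after IGFBP2, are shown for that reason. The windows are chr2:216695550-216695799 on the minus strand for IGFBP5, chr2:216632578-216632827 on the plus strand for IGFBP2 and chr17:40443200-40443449 on the plus strand for IGFBP4. Capitals mark matches to the motifs searched, on either strand.
IGFBP5: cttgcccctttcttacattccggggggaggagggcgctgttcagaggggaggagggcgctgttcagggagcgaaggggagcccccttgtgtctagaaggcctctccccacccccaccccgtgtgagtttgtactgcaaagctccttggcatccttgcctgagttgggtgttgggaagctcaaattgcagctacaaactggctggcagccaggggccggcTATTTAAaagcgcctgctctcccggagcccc
IGFBP2: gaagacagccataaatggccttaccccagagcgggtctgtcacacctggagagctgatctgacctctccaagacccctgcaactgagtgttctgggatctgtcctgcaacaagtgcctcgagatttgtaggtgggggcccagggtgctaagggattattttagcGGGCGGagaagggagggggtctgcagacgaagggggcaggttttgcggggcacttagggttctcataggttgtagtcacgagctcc
IGFBP4: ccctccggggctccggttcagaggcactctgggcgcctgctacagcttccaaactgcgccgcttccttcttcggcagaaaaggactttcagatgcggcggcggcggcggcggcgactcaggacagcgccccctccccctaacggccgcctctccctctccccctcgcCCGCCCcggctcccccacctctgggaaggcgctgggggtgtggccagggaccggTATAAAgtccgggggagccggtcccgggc

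The motifs searched were the TATA box TATAAA, the GC box GGGCGG, the AP-1 site TGAGTCA and CCAAT, and TATTTAA was added after the IGFBP5 window had been read. IGFBP5 held TATTTAA at position -31 from the start and none of the other motifs, and 4.32% of 27305 promoter windows of the same length hold TATTTAA. IGFBP2 held a GC box at -86. IGFBP4 held TATAAA at -29 and a GC box at -83, the latter as its reverse complement CCGCCC. Of all windows, 42.3% hold a GC box and 11.1% hold TATAAA. The IGFBP5 window had 61.2% GC and 8 CG dinucleotides, against 56.8% and 7 in IGFBP2, 71.6% and 24 in IGFBP4, and a median of 58% and 11 over all windows. The IGFBP2 window ends at the base before the outermost start of the gene, 216632828. Which of the 3 IGFBP2 transcripts starts there is not given, so it may not be the window of the main one. RefSeq windows were found for 9 of the 10 genes. Those of the receptor and adaptor genes IGF1R, IRS1, IGF2R and IRS2 had 76.4% to 81.2% GC and 33 to 48 CG dinucleotides. The carrier IGFBP3 was close to these, with 76% and 32, and IGFBP6 had 61.2% and 9. A match is a description of letters, not a bound site.

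IGFBP5, whose product binds IGF and attaches to extracellular matrix, was the member with the highest fold change. The counts were 109, 34 and 114 in the control replicates 1, 2 and 3, and 413, 401 and 569 in the knockdown libraries A, B and C. Scaled to library size these were 5.38, 2.53 and 5.60 CPM in sh-NC and 23.1, 20.9 and 29.7 CPM in shRBM10. The groups did not overlap, and the lowest knockdown library held more IGFBP5 than the highest control. The mean was 4.50 ± 1.71 CPM in sh-NC and 24.6 ± 4.6 CPM in shRBM10 (SD, n = 3 each), a ratio of 5.46. The ratio was 4.48 against sh-NC replicates 1 and 3 alone. On the fitted log2 scale the fold change was 2.44 (SE 0.36) with all libraries and 2.08 (SE 0.26) without sh-NC replicate 2. These values chose the gene and support nothing beyond their description.

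Of the other carriers, IGFBP2, IGFBP3 and IGFBP4 were lower in shRBM10 with groups that did not overlap, IGFBP6 overlapped, and IGFBP7 was near 0. IGFBP2, a carrier that binds both IGF ligands, had 84.6, 147.5 and 87.1 CPM in sh-NC and 43.4, 55.8 and 69.7 CPM in shRBM10. Its log2 fold change was -0.92 (SE 0.29), and -0.69 (SE 0.23) without sh-NC replicate 2, the highest control. IGFBP4, a carrier known for holding IGF away from its receptor, had 60.3, 82.2 and 56.5 CPM in sh-NC and 35.7, 36.1 and 47.0 CPM in shRBM10. Its log2 fold change was -0.74 (SE 0.25), and -0.64 (SE 0.20) without that replicate.

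IGFBP3, the main carrier of IGF in serum, had 99.4, 120.8 and 94.1 CPM in sh-NC and 70.8, 68.2 and 92.4 CPM in shRBM10. The gap between the groups was narrow, since library C at 92.4 CPM lay just under sh-NC replicate 3 at 94.1 CPM. The log2 fold change of IGFBP3 was -0.44 (SE 0.23), and -0.41 (SE 0.19) without sh-NC replicate 2. IGFBP6, the carrier that prefers IGF2, had 95.6, 150.1 and 100 CPM in sh-NC and 76.2, 90.3 and 111.9 CPM in shRBM10. Library C lay above both sh-NC replicates 1 and 3, so no direction held across libraries, and the log2 fold change was -0.31 (SE 0.26), and -0.16 (SE 0.21) without sh-NC replicate 2. IGFBP7 had at most 1 count in any sh-NC library and 2.04 in shRBM10 library C, with 0 in the other 4 libraries, and did not pass the filter on low counts.

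**Figure D1:**
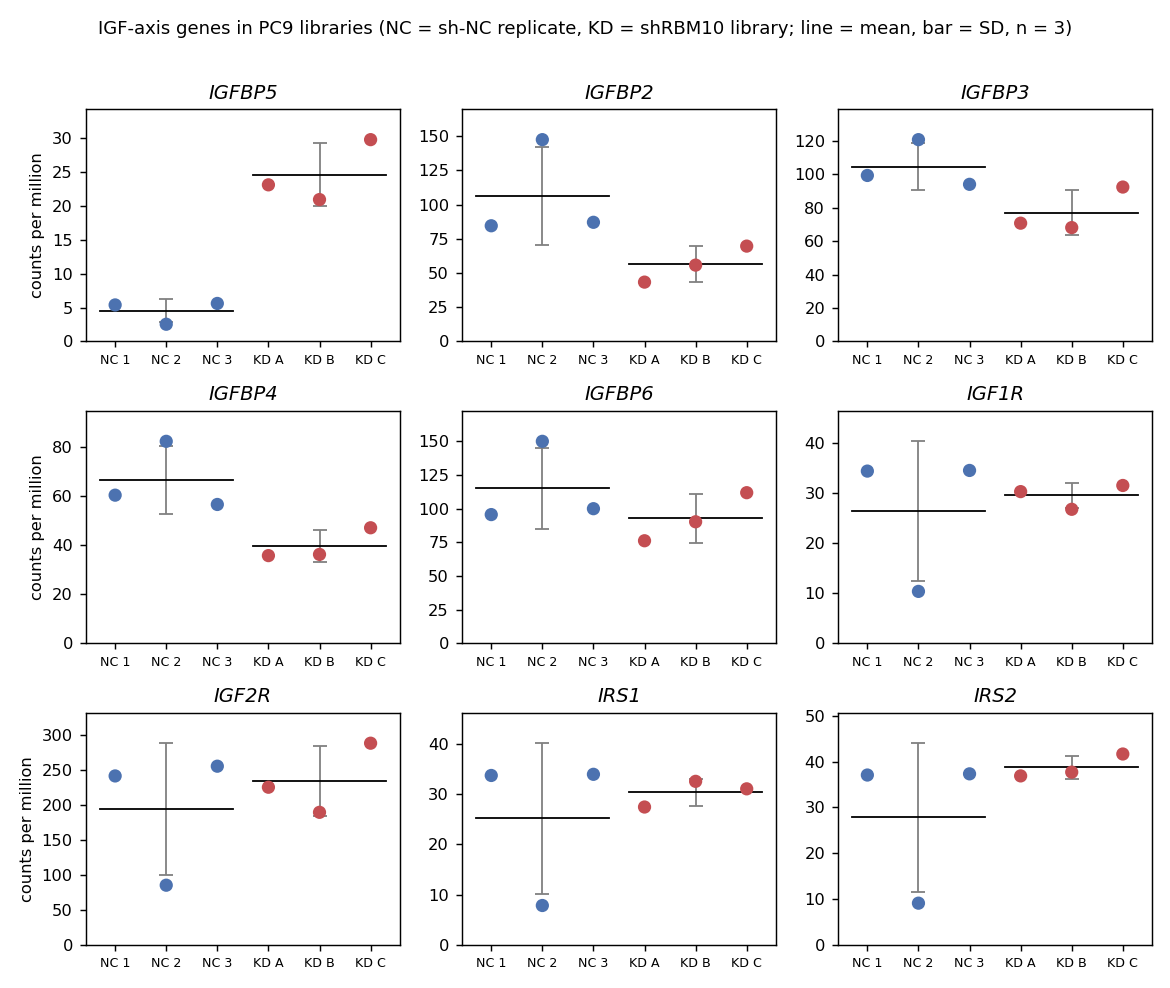
Level in CPM (vertical axes from 0) of the 9 IGF-axis genes that passed the filter in each library (horizontal axis), with points for libraries, a line for the group mean and a bar for the SD (n = 3). IGFBP5 lies at 2.53 to 5.60 CPM in sh-NC and 20.9 to 29.7 CPM in shRBM10, and sh-NC replicate 2 is the lowest control for IGFBP5, IGF1R, IGF2R, IRS1 and IRS2 and the highest for IGFBP2, IGFBP3, IGFBP4 and IGFBP6.

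The receptor and adaptor genes overlapped between the groups. IGF1R, the signaling receptor, had 34.5, 10.4 and 34.6 CPM in sh-NC and 30.3, 26.8 and 31.6 CPM in shRBM10, a log2 fold change of 0.16 (SE 0.40). IGF2R, the clearance and sorting receptor, had 240.9, 85.0 and 254.8 CPM in sh-NC and 224.8, 189.0 and 287.6 CPM in shRBM10, a log2 fold change of 0.27 (SE 0.38). Without sh-NC replicate 2, both fold changes turned negative, to -0.31 (SE 0.18) for IGF1R and -0.17 (SE 0.20) for IGF2R.

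IRS1, the docking protein shared by the insulin and IGF receptors, had 33.7, 7.83 and 33.9 CPM in sh-NC and 27.4, 32.5 and 31.1 CPM in shRBM10. IRS2, its close relative, had 37.1, 9.09 and 37.3 CPM in sh-NC and 36.9, 37.7 and 41.7 CPM in shRBM10. In both, 1 control library lay far below the remaining 5 libraries, which were close together. The log2 fold changes were 0.27 (SE 0.46) for IRS1 and 0.47 (SE 0.44) for IRS2, and -0.24 (SE 0.19) and -0.02 (SE 0.18) without that replicate.

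As a count over the 9 members that passed the filter, 4 had groups that did not overlap, against 30.1% of all 12620 genes tested: 1 higher in shRBM10 (background 13.8%) and 3 lower (background 16.2%). None of the 9 was called by edgeR at an adjusted p under 0.05 with an absolute log2 fold change over 1, where 0.0158% of genes were. With p left unadjusted and that fold limit 1 was (IGFBP5), against 11.6% of genes, and without the fold limit 3 were (IGFBP5, IGFBP2 and IGFBP4), against 24.3%. An absolute log2 fold change over 1, whatever the p, was found in 1 of the 9 (IGFBP5) and in 13.5% of genes. DESeq2 called 1 of the 9 (IGFBP5) at the adjusted limits, against 4.72% of genes. Because the members were chosen on this contrast, nothing is read from these counts.

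The position of sh-NC replicate 2 split the axis by transcript length. Relative to the mean of sh-NC replicates 1 and 3, IGFBP2, IGFBP6, IGFBP4 and IGFBP3, whose longest transcripts span 1177 to 2412 bases, were 1.25 to 1.72 times as high in replicate 2. IGFBP5, IRS2, IRS1, IGF1R and IGF2R, at 6215 to 14044 bases, were 0.23 to 0.46 times as high. Over all genes the median log2 difference of replicate 2 was 0.82 for transcripts under 1500 bases and -0.85 for those of 6000 bases and more. IGFBP5 at -0.98 lay close to the latter, while IRS1 at -2.04 and IRS2 at -1.98 lay further down.

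Of the 4 carriers with a negative fold change, 3 have GC-rich transcripts. IGFBP2, IGFBP6 and IGFBP4 have transcripts of 67.7%, 64.2% and 62.5% GC, and over all genes with 60% GC and more the median log2 difference from sh-NC replicates 1 and 3 was -0.52 in library A, -0.35 in library B and 0.00169 in library C. IGFBP2 stood at -0.98, -0.62 and -0.30 in these libraries, and IGFBP4 at -0.70, -0.68 and -0.31. Both were nearest to the controls in library C, and below them there as well. IGFBP6 stood at -0.36, -0.12 and 0.19. IGFBP3, with 49.5% GC, stood at -0.45, -0.50 and -0.07, near the controls in library C alone. IGFBP5, with 51.9% GC, stood at 1.98, 1.84 and 2.34, while genes of 48% to 54% GC had a median of -0.10, -0.11 and 0.00877. Genes of 6000 bases and more, the length class of IGFBP5, had a median of 0.59, 0.34 and -0.07 in libraries A, B and C. The part of the GC and length trends in these differences was not tested.

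**Figure D2:**
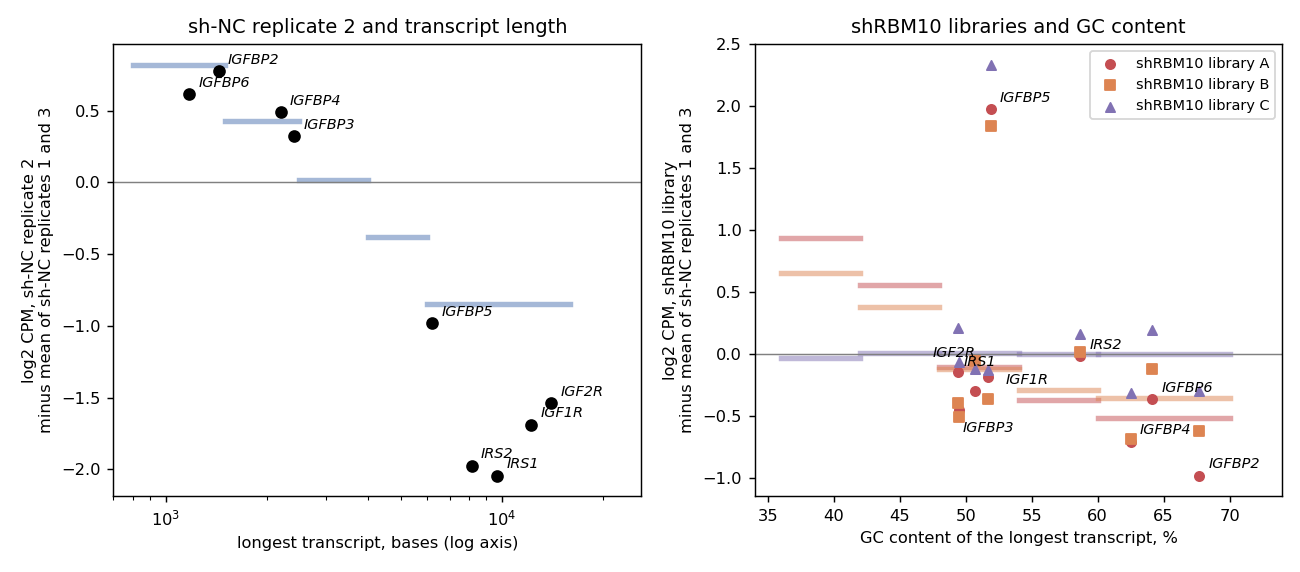
Left, log2 CPM of sh-NC replicate 2 minus the mean of sh-NC replicates 1 and 3 against the longest transcript in bases (log axis); right, the same difference for each shRBM10 library against GC content in %. Points are IGF-axis genes and horizontal bars the medians of all genes in a bin, and IGFBP5 stands at 1.84 to 2.34 in the right panel, above every bar.

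With the trends on GC content and length removed from each library and sh-NC replicate 2 left out, a fit added after the data had been seen, the IGFBP5 log2 fold change was 2.27 (SE 0.16). The lower carriers came nearer to 0: IGFBP2 to -0.35 (SE 0.08), IGFBP3 to -0.33 (SE 0.13) and IGFBP4 to -0.27 (SE 0.10). IGFBP6 turned positive at 0.16 (SE 0.09). IGF1R, IGF2R and IRS1 lay at -0.09, -0.05 and -0.07, and IRS2 at 0.32 (SE 0.10). Over 16 alternative fits, the direction of IGFBP6 turned in 3 and that of IGF1R, IGF2R and IRS1 in 2 each. That of IRS2 turned in 1, at -0.02 (SE 0.18) without sh-NC replicate 2. The direction of IGFBP5, IGFBP2, IGFBP3 and IGFBP4 was the same in all 16.

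**Figure D3:**
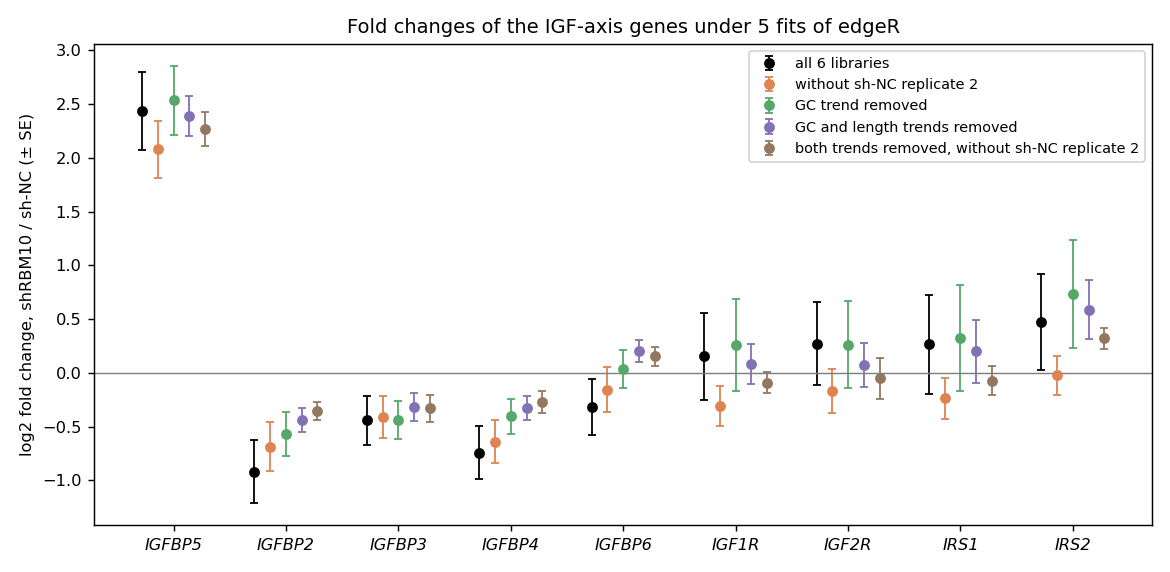
Fitted log2 fold change of shRBM10 over sh-NC (vertical axis) with its SE for 9 IGF-axis genes (horizontal axis) under 5 edgeR fits, shown by color. IGFBP5 stays between 2.08 and 2.54, and IGFBP6, IGF1R, IGF2R, IRS1 and IRS2 lie on both sides of 0 depending on the fit.

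Within a library, IGFBP5, at 6215 bases, was set against the other long transcripts, which at 8138 to 14044 bases are longer and were lower still in sh-NC replicate 2. Per 100 IGF2R counts there were 2.23, 2.98 and 2.20 IGFBP5 counts in control replicates 1, 2 and 3 and 10.3, 11.1 and 10.3 in shRBM10 libraries A, B and C. On this scale sh-NC replicate 2 was the highest control and no longer the lowest. Per 100 IGF1R counts the values were 15.6, 24.5 and 16.2 in sh-NC and 76.1, 78.0 and 94.2 in shRBM10. Per 100 counts of IRS1 they were 16.0 to 32.4 against 64.3 to 95.8, and per 100 of IRS2 14.5 to 27.9 against 55.5 to 71.4. The groups did not overlap in any of these 4 ratios. A ratio shows unequal change between 2 genes and not which of them changed.

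Against its neighbor IGFBP2 the shift was wider. Per 100 IGFBP2 counts, IGFBP5 had 6.36, 1.72 and 6.43 in the controls and 53.2, 37.5 and 42.7 in the knockdown libraries. IGFBP2 was also set against IGFBP6, a carrier of like length and GC content. Per 100 IGFBP6 counts, IGFBP2 had 88.4, 98.3 and 87.0 in sh-NC and 56.9, 61.8 and 62.3 in shRBM10, and IGFBP4 had 63.0, 54.8 and 56.5 against 46.8, 40.03 and 41.99. Both ratios were lower in every shRBM10 library, library C included. IGFBP3 per 100 IGFBP6 overlapped, at 80.5 to 103.9 against 75.5 to 93.0.

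**Figure D4:**
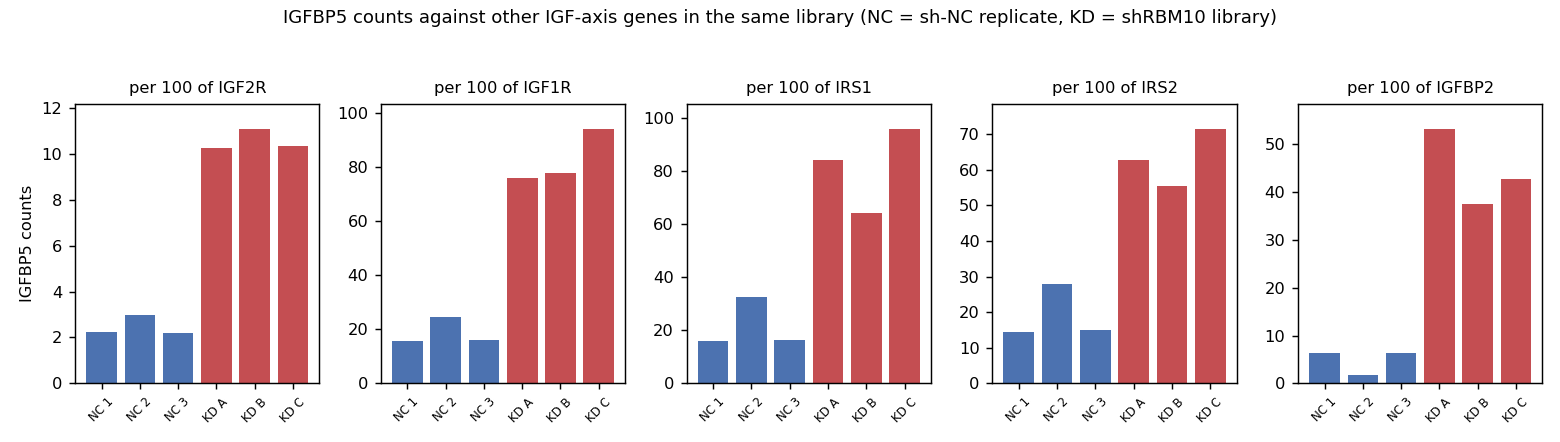
IGFBP5 counts per 100 counts of IGF2R, IGF1R, IRS1, IRS2 and IGFBP2 (vertical axes from 0) in each library (horizontal axis, bars). Per 100 IGF2R counts the control libraries reach 2.98 at most and the shRBM10 libraries start at 10.3.

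Compared per length, IGFBP5 was a minor carrier in both groups. On the TPM scale, which divides counts by transcript length before scaling each library to 1000000 and was rebuilt for all 6 libraries, sh-NC means ran from IGFBP6 at 178 ± 21.6 TPM and IGFBP2 at 99.96 ± 5.98 through IGFBP3 at 48.6 ± 10.8, IGFBP4 at 36.6 ± 5.95 and IGF2R at 17.5 ± 11.4 down to IGF1R at 4.49 ± 3.03, IRS2 at 4.47 ± 3.16, IRS1 at 3.36 ± 2.41 and IGFBP5 at 0.92 ± 0.54 (SD, n = 3). IGFBP5 thus held position 9 of 10, above IGFBP7 at 0.014 TPM. IGFBP3 and IGFBP4 overlapped, as did IGF1R, IRS2 and IRS1. The low values of sh-NC replicate 2 also brought IGF2R into the range of these 3 genes, and these 3 into the range of IGFBP5. Within each control library IGFBP5 was below IRS1.

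In shRBM10 the order from IGFBP6 (172 ± 26.9 TPM) through IGFBP2 (64.3 ± 12.4), IGFBP3 (41.8 ± 6.70), IGFBP4 (25.9 ± 3.71) and IGF2R (21.7 ± 4.62) was that of sh-NC, with IGFBP4 and IGF2R overlapping. IGFBP5 followed at position 7 with 5.25 ± 0.95 TPM, between IRS2 at 6.28 ± 0.38 and IGF1R at 5.13 ± 0.62, and overlapped with both. IRS1 at 4.07 ± 0.11 lay under all 3 IGFBP5 values. Taking the longest GENCODE transcript as the length moved the IGFBP5 mean in shRBM10 to 8.51 TPM and that in sh-NC to 1.496 TPM, so the level depends on the length assumed.

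As a share of the summed TPM of the 6 carriers, IGFBP5 made up 0.311%, 0.0951% and 0.319% in sh-NC and 1.91%, 1.5% and 1.69% in shRBM10. IGFBP2 made up 26.3%, 29.8% and 26.7% in sh-NC and 19.3%, 21.6% and 21.3% in shRBM10. IGFBP6 was the most abundant carrier transcript in every library, at 48.2% to 49.6% in sh-NC and 54.9% to 56.5% in shRBM10. The summed carrier level was 314.4 to 396.2 TPM in sh-NC and 277.9 to 365.6 TPM in shRBM10, with overlap.

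RBM10 acts on splicing, and the transcript table was read for that reason. Only IGFBP2, IGFBP7 and IGF1R were listed with more than 1 transcript, so no isoform measure exists for IGFBP5. The main IGFBP2 transcript took 95.3%, 83.6% and 96.9% of the gene's estimated total in the controls and 89.0%, 91.9% and 97.4% in the knockdown libraries, with overlap. The 7 IGF1R transcripts had shares that ranged widely within a group, and which of them had the highest share differed between libraries of the same group. Counts of transcripts that share most of their sequence are estimates.

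Beyond these genes, 55 other genes of the axis were listed by role, of which 53 were in the table and 43 passed the filter. None was called by edgeR at an adjusted p under 0.05 with an absolute log2 fold change over 1, and their median log2 fold change was -0.01 against 0.03 over all genes tested. With p left unadjusted and the same fold limit, 4 of 43 were higher (10.1% of all genes) and 0 lower (1.53%). With p left unadjusted and no fold limit, 5 were higher (15.7%) and 2 lower (8.6%). DESeq2 called 3 of them higher at its adjusted limits (3.73% of all genes) and 0 lower (0.998%). By fold alone, 6 were over 1 (11.9%) and 0 under -1 (1.59%). The groups did not overlap in 7 that were higher (13.8% of all genes) and in 3 that were lower (16.2%). The higher ones were IGF2BP3, GIGYF2, FOXO1, FOXO4, GNPTAB, GNPTG and SPP1, and the lower ones were STC2, SOCS2 and FHL2.

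The ligands were not both present. IGF1 had 0 counts in every control and 1 in every knockdown library, under the 3 counts taken as the floor. IGF2, the ligand that many tumors make, had 64.3, 26.2 and 61.0 CPM in sh-NC and 46.8, 59.0 and 85.8 CPM in shRBM10, with overlap (log2 fold change 0.34, SE 0.36, edgeR adjusted p = 0.554). Without sh-NC replicate 2 the IGF2 fold change turned to -0.05. IGFBP1, the liver carrier, had 0 to 6 counts in a library. INSR, the insulin receptor, had 10.5, 3.50 and 10.6 CPM in sh-NC and 10.9, 9.07 and 12.7 CPM in shRBM10, with overlap (log2 fold change 0.40, SE 0.41, edgeR adjusted p = 0.529), and its fold change turned to -0.03 without sh-NC replicate 2.

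SPP1, which encodes osteopontin, a matrix phosphoprotein known to bind IGFBP5, had the lowest p of the list. It had 67.4, 91.7 and 70.4 CPM in sh-NC and 215.8, 215.1 and 171.0 CPM in shRBM10, without overlap. Its log2 fold change was 1.39 (SE 0.23), with an adjusted p of 0.0894 in edgeR and 0.000168 in DESeq2. Without sh-NC replicate 2 it was 1.46 and edgeR called SPP1. Of the other proteins listed as binding IGFBP5, FHL2 and THBS1, chosen for mention after their values were seen, were lower in the fit, with log2 fold changes of -0.96 (SE 0.26, edgeR adjusted p = 0.153) and -0.75 (SE 0.43, edgeR adjusted p = 0.282). FHL2 had 313.3, 471.4 and 294.5 CPM in sh-NC and 154.8, 207.7 and 191.5 CPM in shRBM10, without overlap. THBS1 had 196.5, 53.4 and 215.4 CPM in sh-NC and 92.0, 87.2 and 97.0 CPM in shRBM10, so its overlap rested on sh-NC replicate 2. Without that replicate the THBS1 log2 fold change was -1.24, and -1.43 with both trends removed as well, and edgeR called THBS1 as lower in both fits. FHL2 stood at -0.80 and -0.83 in these fits and was not called. VTN was under the filter.

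Among the carrier proteases and their inhibitors, 6 passed the filter and 3 had a positive fold change. ADAM9, a membrane metalloprotease able to cut IGFBP5, had 95.1, 28.9 and 92.3 CPM in sh-NC and 218.7, 179.7 and 85.1 CPM in shRBM10, with a log2 fold change of 1.16 (SE 0.47, edgeR adjusted p = 0.183), and 0.69 without sh-NC replicate 2. Library C fell among the controls, and with both trends removed and sh-NC replicate 2 left out the value was 0.13. STC2, listed there as an inhibitor and not as a protease, and mentioned after its values were seen, was lower in shRBM10 without overlap. Its log2 fold change was -0.51 (SE 0.24, edgeR adjusted p = 0.216). Without sh-NC replicate 2 it was -0.75, and -0.55 with both trends removed as well.

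IGF2BP3, which binds IGF2 mRNA, had 14.3, 6.11 and 16.8 CPM in sh-NC and 60.1, 30.4 and 18.2 CPM in shRBM10 (log2 fold change 1.54, SE 0.48, adjusted p = 0.156 in edgeR and 0.0319 in DESeq2). GNPTAB, whose enzyme adds the mannose 6-phosphate tag that IGF2R reads, had 8.74, 2.46 and 8.55 CPM in sh-NC and 26.9, 19.4 and 9.51 CPM in shRBM10 (log2 fold change 1.49, SE 0.51, adjusted p = 0.165 in edgeR and 0.0472 in DESeq2). In both, library C lay just above the controls, and the fold changes without sh-NC replicate 2 were 1.13 and 1.015, and 0.56 and 0.57 with both trends removed as well. SPP1 in that fit was at 0.97.

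In the remaining roles no gene was called by edgeR at the adjusted limits with all libraries. Of 10 negative regulators of the receptors and adaptors 5 had a positive fold change, of 6 other adaptors 2, of 7 genes of mannose 6-phosphate sorting 2, and of the 3 forkhead factors that insulin and IGF signaling keeps out of the nucleus 3, while 51.6% of all genes tested had one. FOXO3, a forkhead factor mentioned after its values were seen, went from 0.51 to -0.00488 without sh-NC replicate 2. FOXO1 and FOXO4, higher without overlap, were at 0.23 and 0.09 in that fit. With both trends removed as well, FOXO1 was at 0.09, FOXO3 at 0.04 and FOXO4 at 0.38. GNPTG, of mannose 6-phosphate sorting, and GIGYF2, a negative regulator, were higher without overlap. Their fold changes were 0.48 (SE 0.23, edgeR adjusted p = 0.219) and 0.95 (SE 0.37, edgeR adjusted p = 0.177). Without sh-NC replicate 2 they were 0.37 and 0.55, and 0.67 and 0.35 with both trends removed as well. SOCS2, a negative regulator also mentioned after its values were seen, was lower without overlap, at -0.74 (SE 0.26, edgeR adjusted p = 0.169). It was at -0.65 without sh-NC replicate 2 and at -0.73 with both trends removed as well. Without sh-NC replicate 2, 15 of the 43 listed genes had a positive fold change in place of 21, and the median was -0.09, against 51.2% positive and a median of 0.02 over all genes.

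The 5 genes whose log2 levels over the 6 libraries lay nearest to those of IGFBP5, each set against its own sh-NC mean, were GPNMB, TRANK1, MMP13, IFI44 and IFIH1, at a root mean square distance of 0.351, 0.489, 0.537, 0.542 and 0.554 log2 units. GPNMB, a membrane glycoprotein of lysosomes and melanosomes, had 18.9, 14.5 and 17.3 CPM in sh-NC and 92.3, 72.3 and 70.4 CPM in shRBM10. MMP13, a collagenase, had 1.83, 1.79 and 1.87 CPM in sh-NC and 18.6, 16.3 and 10.9 CPM in shRBM10. IFI44, an interferon-induced gene, had 8.35 to 9.23 CPM in sh-NC and 26.9 to 40.8 CPM in shRBM10, and IFIH1, which encodes a sensor of double-stranded RNA, 2.24 to 8.69 CPM against 16.7 to 38.6 CPM. All 5 were higher in every shRBM10 library than in any control, as the measure of likeness favors. None of the other members was among them. The measure made that near certain, since the highest log2 fold change of another member was 0.47 (IRS2), so nothing is read from it.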

How the data were processed

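RNA from 3 sh-NC and 3 shRBM10 PC9 samples was sequenced by BGI-Tech. The submitters' processing notes name hg38, and the aligner, counting tool and annotation are not given in the sources used here. The authors deposited estimated counts per gene (16306 genes) and per transcript (76563), which were rounded to whole numbers for tests, and TPM. The authors' deposited TPM of the 4 columns that match a sample title gave relative gene lengths, from which TPM was rebuilt for all libraries (median difference of 1.32% from the deposited values at a TPM of at least 5). The 2 other shRBM10 columns match no sample title and were used as libraries B and C of that group. Another 14 columns of per-library values in the gene table and 18 in the transcript table, and 8 columns of group means in each, were not used.

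The filter filterByExpr left 12620 genes, which were scaled by TMM and tested by edgeR's quasi-likelihood test (R 4.3.3, edgeR 4.0.16 with limma 3.58.1), with Benjamini-Hochberg adjustment over all of them. A call needed an adjusted p under 0.05 together with a log2 fold change beyond 1 in size. The SE is the log2 fold change divided by the square root of F, without sign. CPM uses TMM-scaled library sizes, and 0.5 was added before logs were taken for single libraries. Lengths, GC content and coordinates are from GENCODE release 29 (GRCh38) and promoter windows from RefSeq (GRCh38.p14), matched by symbol. DESeq2 1.42.0, limma-voom, other scalings and filters, GC and length corrections and fits without each library were alternatives. The scripts were tested on simulated data.

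The members, the list of other axis genes and the marker lists were chosen with earlier results of these data known. Genes named are RBM10, the members, IGF1, IGF2, IGFBP1, INSR, list genes called by edgeR, up to 8 others with the lowest p among those past the fold limit with p left unadjusted, and the 5 genes nearest to IGFBP5 by root mean square distance. FHL2, THBS1, STC2, SOCS2, GNPTG, GIGYF2 and the forkhead genes FOXO1, FOXO3 and FOXO4 are outside this rule. The floor of 3 counts covers counting error only.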

Additional observations from a re-analysis of the deposited data

How the results depend on the processing

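edgeR called 2 of 12620 genes with all libraries. The count was 573 with DESeq2, 31 with a filter of at least 1 count in all, 5 with the GC trend removed, 168 with GC and length trends removed, 287 with both removed and without sh-NC replicate 2, 0 with library-size scaling only, and 0 to 23 when 1 library was left out, the highest without sh-NC replicate 2. Without adjustment of p and with the same fold limit it was 1465. Of the 43 other axis genes, 0 were called with all libraries, 3 with DESeq2 (GNPTAB, IGF2BP3 and SPP1), 1 with the weaker filter (SPP1), 1 with both trends removed and without sh-NC replicate 2 (THBS1), 4 at the unadjusted p, and 0 to 2 when 1 library was left out (SPP1 and THBS1 without sh-NC replicate 2). The IGFBP5 log2 fold change ranged from 2.08 to 2.62 over 16 alternatives.

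The direction of IGFBP6 turned with the GC trend removed (0.039), with both trends removed (0.20), and with both removed and without sh-NC replicate 2 (0.16). When 1 library was left out, the fold change ranged from -0.31 to 0.39 for IGF1R, -0.17 to 0.52 for IGF2R, -0.24 to 0.54 for IRS1 and -0.022 to 0.74 for IRS2, each lowest without sh-NC replicate 2 and positive in the other 5 fits. With both trends removed and without sh-NC replicate 2, it was -0.090 for IGF1R, -0.051 for IGF2R and -0.072 for IRS1. Library-size scaling alone moved the median log2 fold change of all genes from 0.027 to 0.16. The mean IGFBP5 level in shRBM10 moved from 5.25 to 8.51 TPM with the longest GENCODE transcript as length. The causes were not tested. No paired analysis was possible because the columns of shRBM10 libraries B and C carry no replicate number. At 34 to 114 counts in sh-NC, IGFBP5 rests on few reads, and counts of 3 or fewer, as for IGFBP7 and IGF1, allow no comparison.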
